A study of Homo sapiens with 6 samples.

Results

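The autophagy machinery was described as 36 genes taken by symbol, from the kinase that starts autophagy to the cargo receptors and the transcription factor TFEB. All 36 were found among the 58478 genes to which the deposited transcripts could be assigned. The series compared Huh7 cells, an established line derived from a human hepatocellular carcinoma and labelled wild type, after 24 h in a chamber at 1% oxygen (hypoxia, 3 libraries) or at 21% oxygen (normoxia, 3 libraries). Both groups were grown in the same serum-containing medium, and no other agent or allele is named for either. RNA depleted of ribosomal RNA was sequenced from both ends with strand-specific libraries. The series title names a long noncoding RNA induced by low oxygen and ferroptosis, so the autophagy genes are described here for the oxygen contrast alone.

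Macroautophagy encloses cytoplasm, organelles or protein aggregates in a double membrane, the autophagosome, which then fuses with the lysosome. The ULK1 kinase complex starts the process, the class III PI3-kinase complex makes the lipid PI3P, ATG9A vesicles and ATG2 lipid transfer proteins supply membrane, and a pair of ubiquitin-like conjugation systems attach ATG8 proteins (LC3 and GABARAP) to that membrane. Cargo receptors such as p62 (SQSTM1) bind both cargo and ATG8 proteins. In liver cells autophagy is known for the turnover of glycogen, lipid droplets and mitochondria, and many of its genes respond to nutrient or oxygen shortage. Levels of mRNA, as measured here, do not give the rate at which autophagosomes form or are degraded.

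Libraries held 37621426 to 39627686 expected counts in hypoxia and 39658910 to 40794783 in normoxia. All 10 hypoxia check genes, among them CA9 and VEGFA, rose. Most mRNAs that define hepatocytes were near 0 in libraries labelled as a hepatocyte-derived line. Of 15 hepatocyte markers, 13 were under 1 CPM (counts scaled to a common library size) in both groups and 7, among them AFP, APOA1 and TTR, had no count. The summed level of that list was 8.33 to 9.67 CPM in hypoxia and 1.4 to 1.63 CPM in normoxia. Most of it came from HNF4A, at 7.01 CPM in hypoxia and 1.3 CPM in normoxia. Markers of other cell types also differed in sum, with 400.4 to 425.9 CPM in hypoxia and 516.4 to 533.5 CPM in normoxia for 6 epithelial genes, and 58.6 to 67.9 CPM in hypoxia and 72.6 to 75.3 CPM in normoxia for 7 fibroblast genes, of which COL1A2 had no count. The lower epithelial sum came from KRT18, at 376.7 CPM in hypoxia and 496.5 CPM in normoxia. The other tested epithelial genes, KRT8 and CLDN4, did not pass. The lower fibroblast sum came from COL1A1, at 56.9 CPM in hypoxia and 71.4 CPM in normoxia, while the other tested genes of that list, PDGFRB and COL3A1, rose. For 6 leukocyte genes the sums were 43.7 to 53.3 CPM in hypoxia and 7.15 to 7.28 CPM in normoxia, mostly from the lysosomal protein CD68, while PTPRC had no count. For 8 trophoblast and intestinal genes they were 4102.2 to 4495.0 CPM in hypoxia and 3176.7 to 3274.1 CPM in normoxia, and CDX2 had no count. The higher sum came from ALPI, at 3020.0 CPM in hypoxia and 1449.2 CPM in normoxia, while the other 4 tested genes, ALPP, CGA, GATA3 and TFAP2A, fell. CGA was the highest of these 4, at 904.8 CPM in hypoxia and 1315.9 CPM in normoxia. Of the 8 genes, 3 were under 1 CPM in both groups. The part of these differences in the results below was not tested. Whether the libraries hold Huh7 cells, as labelled, was not tested either.

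In hypoxia the mRNAs of the kinase ULK1, the LC3 protein MAP1LC3B, the ATG16L1 paralog ATG16L2, the vesicle protein ATG9A and the PI3-kinase subunit ATG14 were at least 2-fold higher, and no tested autophagy gene fell by that much. Of the 36 genes, 34 passed the filter on low counts, and of these 19 rose, 7 fell and the other 8 missed the threshold (edgeR's quasi-likelihood test on gene sums, Benjamini-Hochberg adjusted p under 0.05 over all 17396 genes tested). This is 76.5% changed, beside 72.8% of all genes tested, with 36.5% of all genes risen and 36.3% fallen. The share of autophagy genes that changed was thus near the background. A rise of at least 2-fold was seen in 5 of the 34, or 14.7%, beside 17.5% of all genes. The median log2 change of the 34 was 0.22, with a range of -0.70 to 2.17, and that of all genes was 0.02. The values of the 3 hypoxia and 3 normoxia libraries did not overlap in 26 of the 34 tested autophagy genes. Of these, 19 were higher in hypoxia and 7 lower, beside 75.7% without overlap among all genes tested. In bulk RNA a change in the number of cells of a type and a change in RNA per cell cannot be told apart. Summed over the 36 genes, levels were 3057.8 to 3078.5 CPM in hypoxia and 2025.2 to 2052.4 CPM in normoxia. With scaling by library totals in place of TMM, the median of all genes moved by -0.15, and 14 autophagy genes rose and 8 fell. Under that scaling 5207 genes of the whole table rose and 7431 fell, against 6348 risen and 6321 fallen with TMM.

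**Figure D1:**
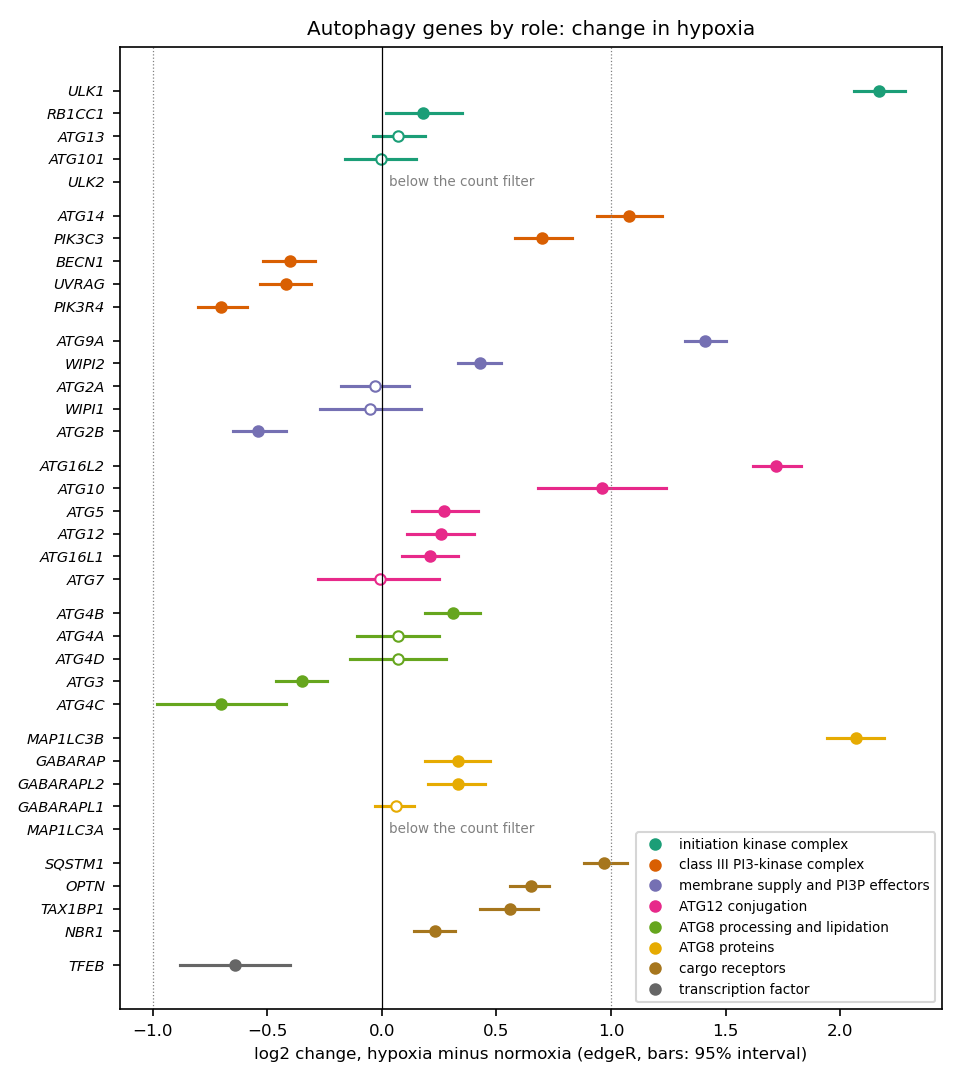
Log2 change, hypoxia minus normoxia, of the 36 autophagy genes grouped by role, with 95% intervals from edgeR (filled points passed the adjusted p threshold of 0.05, open points did not, dotted lines mark a log2 change of 1 in either direction). ULK1 at 2.17 and MAP1LC3B at 2.07 lie farthest to the right, PIK3R4 and ATG4C at -0.70 farthest to the left, and ULK2 and MAP1LC3A had too few counts for a value.

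Promoter sequences of the 5 genes that rose at least 2-fold are shown because they are the ones in which the letters recognised by hypoxia-inducible factors could be looked for beside the change. Each is the 250 bases before the gene start given by RefSeq on GRCh38.p14, 5′ to 3′ on the strand of the gene. Capitals mark every ACGTG or GCGTG, the core letters of the hypoxia response element, read on either strand, so that a match on the other strand appears as CACGT or CACGC.
ULK1 chr12:131894372-131894621 plus strand: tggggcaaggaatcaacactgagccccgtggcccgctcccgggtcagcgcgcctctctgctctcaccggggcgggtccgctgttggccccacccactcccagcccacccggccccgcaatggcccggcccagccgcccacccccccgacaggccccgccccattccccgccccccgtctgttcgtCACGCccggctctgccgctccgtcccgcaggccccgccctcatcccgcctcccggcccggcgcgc
MAP1LC3B chr16:87392086-87392335 plus strand: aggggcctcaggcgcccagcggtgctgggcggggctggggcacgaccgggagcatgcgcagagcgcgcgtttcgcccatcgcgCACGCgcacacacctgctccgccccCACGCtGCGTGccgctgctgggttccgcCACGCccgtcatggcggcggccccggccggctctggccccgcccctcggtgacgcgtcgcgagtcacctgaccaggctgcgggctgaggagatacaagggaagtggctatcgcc
ATG16L2 chr11:72814161-72814410 plus strand: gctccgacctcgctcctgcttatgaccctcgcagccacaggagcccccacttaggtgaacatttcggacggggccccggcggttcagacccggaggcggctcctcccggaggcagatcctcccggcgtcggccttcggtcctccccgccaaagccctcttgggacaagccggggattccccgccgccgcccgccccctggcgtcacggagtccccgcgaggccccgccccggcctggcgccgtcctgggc
ATG9A chr2:219229637-219229886 minus strand: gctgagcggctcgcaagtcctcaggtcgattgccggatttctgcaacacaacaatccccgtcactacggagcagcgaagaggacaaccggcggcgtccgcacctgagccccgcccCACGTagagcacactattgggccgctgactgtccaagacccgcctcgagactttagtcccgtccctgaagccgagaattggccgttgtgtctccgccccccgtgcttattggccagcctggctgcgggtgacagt
ATG14 chr14:55411831-55412080 minus strand: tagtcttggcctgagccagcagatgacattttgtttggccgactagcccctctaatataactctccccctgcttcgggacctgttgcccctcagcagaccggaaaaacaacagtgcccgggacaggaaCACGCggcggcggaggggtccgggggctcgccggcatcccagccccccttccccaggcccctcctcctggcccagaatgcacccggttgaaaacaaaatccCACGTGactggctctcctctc
MAP1LC3B carried 4 such cores, starting at positions -167, -142, -136 and -114 relative to the gene start. ULK1 carried 1 core at -65 and ATG9A 1 core at -135. ATG14 carried 1 core at -122 and the palindrome CACGTG, which reads as ACGTG on both strands and was counted at -21 and -20. No core was found in the ATG16L2 window, although that gene rose 3.30-fold. RefSeq windows from 250 bases before to 50 bases after the start were found for 32 of the 36 genes, some with several starts, giving 41 windows. Either core was present in 27 of these 41 windows, or 65.9%, beside 48.4% of all 35116 promoter windows. GCGTG was in 22 of 41 windows (53.7%, beside 36.5% of all), and ACGTG in 10 of 41 (24.4%, beside 21.4% of all). CACGTG, an E-box that also counts as ACGTG, was in 2 of 41 (4.88%, beside 7.26% of all). These 41 windows pool genes that rose, fell, did not pass or were not tested, and a gene with several starts counts more than once. Base composition was not compared with that of all windows, and the differences in share were not tested. The window of ATG3, which fell, held 7 matches of ACGTG. Of the other fallen genes with a window, PIK3R4, ATG4C and TFEB held a core, and BECN1 and ATG2B held none. Besides ATG16L2, the risen genes SQSTM1, OPTN, ATG16L1 and ATG4B held none, while the remaining risen genes with a window held a core. A match is a description of the letters and not of a bound site.

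In the initiation complex ULK1 rose strongly, RB1CC1 passed the test narrowly, and ATG13 and ATG101 did not pass. ULK1, the kinase that starts autophagosome formation, had 233.6, 247.7 and 225.5 CPM in the hypoxia libraries, against 52.1, 53.9 and 51.2 CPM in the normoxia libraries. All hypoxia values were far above all normoxia values, and the rise was 4.50-fold (log2 change 2.17 ± 0.05 SE, adjusted p = 6.42e-11). ULK1 lies on chromosome 12 from 131894651 to 131923167 (GRCh38, GENCODE 29). RB1CC1, which encodes the scaffold FIP200, had 101.4, 95.3 and 115.3 CPM in hypoxia against 85.0, 92.5 and 96.9 CPM in normoxia. These values overlapped, and the log2 change of 0.18 ± 0.07 passed narrowly (adjusted p = 0.0395). RB1CC1 lost the call when hypoxia C4 (log2 change 0.20), hypoxia C6 (0.11), normoxia C1 (0.12) or normoxia C2 (0.18) was left out, and with library totals (0.03). ATG13, the subunit that links ULK1 to FIP200, averaged 75.3 ± 4.10 CPM in hypoxia and 71.5 ± 3.14 CPM in normoxia (SD, n = 3 each) and did not pass, with a 95% interval of the log2 change of -0.04 to 0.19. ATG101, which stabilises ATG13, had a log2 change of -0.003 and an interval of -0.16 to 0.15. It averaged 46.4 CPM in hypoxia and 46.5 CPM in normoxia. ULK2, the second kinase of the complex, had 2, 4 and 0 counts in hypoxia and 1, 2 and 1 counts in normoxia and was not tested. A floor of 3 counts corresponded to 0.0842 to 0.0898 CPM in hypoxia libraries and 0.0750 to 0.0765 CPM in normoxia libraries. ULK3, a related kinase outside the 36 genes, averaged 40.4 CPM in hypoxia and 23.2 CPM in normoxia. Per length, the ratio of ULK1 to ATG13 in FPKM (fragments per kilobase of transcript, scaled to library size) was 1.88 ± 0.0468 in hypoxia and 0.446 ± 0.00882 in normoxia (SD, n = 3 each). This ratio and those below were chosen after their values were seen and are given without a test.

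**Figure D2:**
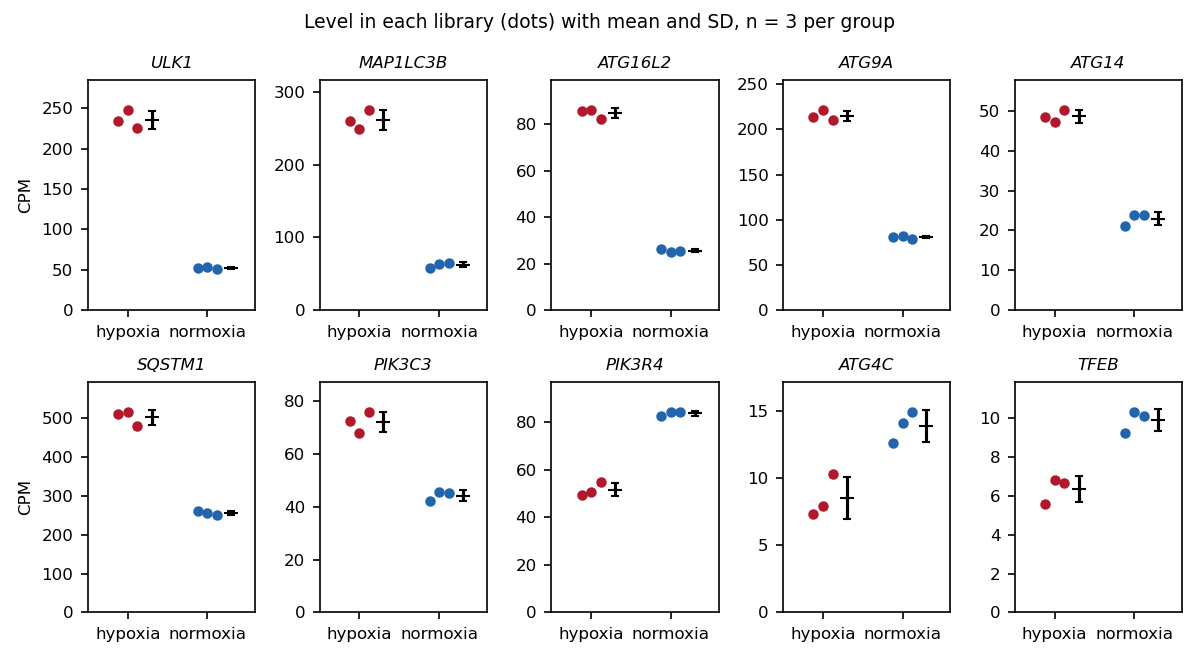
Levels in CPM of 10 autophagy genes in each library (dots, hypoxia left and normoxia right in each panel), with mean and SD for n = 3 per group on a linear axis from 0. The 5 genes that rose at least 2-fold fill the upper row, SQSTM1 and PIK3C3 rose, and PIK3R4, ATG4C and TFEB fell, without overlap between the groups in any panel.

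The class III PI3-kinase complex split in both directions, with 2 subunits risen and 3 fallen, beside 36.5% risen and 36.3% fallen of all genes. ATG14, which directs the complex to autophagosome formation, had 48.5, 47.1 and 50.2 CPM in hypoxia and 21.1, 23.9 and 23.9 CPM in normoxia. The hypoxia values all lay above the normoxia values, with a rise of 2.12-fold (log2 change 1.08 ± 0.06, adjusted p = 6.29e-08). ATG14 lies on chromosome 14 from 55366392 to 55411858 and stayed risen under every alternative, with log2 changes from 0.81 to 1.31. PIK3C3, the catalytic subunit VPS34, had 72.3, 67.9 and 75.7 CPM in hypoxia against 42.0, 45.6 and 45.0 CPM in normoxia. It rose 1.63-fold (log2 change 0.70 ± 0.06, adjusted p = 8.01e-07) without overlap. Per length PIK3C3 was highest of the 5 in hypoxia at 36.1 FPKM, whereas in normoxia, at 22.0 FPKM, it was below BECN1 at 31.5 FPKM and UVRAG at 25.2 FPKM. PIK3R4, the regulatory subunit VPS15 that binds VPS34, moved the other way. It had 49.5, 50.7 and 54.7 CPM in hypoxia, all below the 82.6, 84.1 and 84.1 CPM in normoxia, and fell by 0.70 on the log2 scale (SE 0.05, adjusted p = 3.03e-07). BECN1, the scaffold beclin 1, averaged 40.2 ± 2.15 CPM in hypoxia and 53.1 ± 1.19 CPM in normoxia and fell by 0.40 (SE 0.05, adjusted p = 4.69e-05). UVRAG, which takes the place of ATG14 in the endosomal form of the complex, averaged 42.6 ± 2.05 CPM in hypoxia and 57.1 ± 0.728 CPM in normoxia (SD, n = 3 each) and fell by 0.42. The FPKM ratio of ATG14 to UVRAG was 0.551 ± 0.0775 in hypoxia and 0.205 ± 0.0273 in normoxia, 2.69 times higher. That of PIK3C3 to PIK3R4 was 3.51 ± 0.222 in hypoxia and 1.21 ± 0.193 in normoxia.

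Among membrane supply genes ATG9A stood out. ATG9A, a lipid scramblase carried by the vesicles that seed autophagosomes, had 213.7, 221.5 and 210.0 CPM in hypoxia against 81.5, 81.6 and 79.2 CPM in normoxia. It rose 2.66-fold (log2 change 1.41 ± 0.04, adjusted p = 3.67e-10), and the narrow groups did not overlap. The gene lies on chromosome 2 from 219219380 to 219229717, and 38.8% of its exon bases are shared on the same strand with the protein-coding entry ENSG00000284820, which had 17.1 CPM in hypoxia and 4.34 CPM in normoxia. WIPI2, the PI3P effector that recruits ATG16L1, had 87.1, 87.7 and 85.7 CPM in hypoxia and 66.5, 64.5 and 62.6 CPM in normoxia and rose 1.35-fold (adjusted p = 5.31e-06), but its most abundant transcript alone fell by 0.31 on the log2 scale. ATG2B, one of a pair of lipid transfer proteins, averaged 39.4 ± 1.34 CPM in hypoxia and 57.2 ± 1.95 CPM in normoxia (SD, n = 3 each) and fell by 0.54 (SE 0.05). Its paralog ATG2A did not pass, with a log2 change of -0.03 and a 95% interval of -0.18 to 0.12. WIPI1, a PI3P effector at 7.51 CPM in hypoxia and 7.78 CPM in normoxia, did not pass either (interval -0.27 to 0.17). In WIPI1, 24.3% of exon bases lie opposite ARSG exons, and ARSG had 79.3 CPM in hypoxia and 35.9 CPM in normoxia. The FPKM ratio of ATG9A to ATG2A was 6.18 ± 0.359 in hypoxia and 2.27 ± 0.218 in normoxia.

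The ATG12 conjugation system joins ATG12 to ATG5 and places the product on ATG16L1. Of its 6 genes, 5 rose and none fell with transcripts of all types summed, beside 36.5% risen and 36.3% fallen of all genes tested. ATG16L2, a paralog of ATG16L1, had 85.6, 86.0 and 82.2 CPM in hypoxia and 26.3, 25.2 and 25.3 CPM in normoxia. Every hypoxia library was above every normoxia library, and the rise was 3.30-fold (log2 change 1.72 ± 0.05, adjusted p = 2.36e-10). ATG16L2 lies on chromosome 11 from 72814308 to 72843674. ATG16L1 itself, which recruits the lipidation machinery to the membrane, averaged 50.2 ± 2.86 CPM in hypoxia and 43.5 ± 1.29 CPM in normoxia (SD, n = 3 each) and rose 1.16-fold (adjusted p = 0.00581). The FPKM ratio of ATG16L2 to ATG16L1 was 1.67 ± 0.0949 in hypoxia and 0.688 ± 0.0301 in normoxia. The order of these paralogs thus differed between the groups when transcripts of all types were summed. Coding transcripts held only 30.8% of ATG16L2 counts in hypoxia and 42.8% in normoxia. For ATG16L1 they held 71.4% in hypoxia and 68.5% in normoxia, and an order by coding transcripts alone was not made. ATG10, the E2-like enzyme for ATG12, had 8.53, 8.56 and 8.86 CPM in hypoxia and 4.25, 3.82 and 5.25 CPM in normoxia, a 1.95-fold rise (log2 change 0.96 ± 0.13, adjusted p = 5.12e-05). ATG12, the ubiquitin-like protein itself, had 60.5, 57.0 and 64.5 CPM in hypoxia and 47.3, 50 and 55.0 CPM in normoxia and rose 1.19-fold (adjusted p = 0.00504). Coding transcripts held 46.0% of ATG12 counts in hypoxia and 56.7% in normoxia, without overlap. The most abundant of them, ATG12-208, did not pass (log2 change -0.07, edgeR adjusted p = 0.587). Transcripts subject to nonsense-mediated decay held 25.4% in hypoxia and 13.9% in normoxia. ATG5, the conjugation partner of ATG12, averaged 30.3 ± 1.73 CPM in hypoxia and 25.1 ± 1.08 CPM in normoxia and rose 1.21-fold (adjusted p = 0.00295). Coding transcripts held 45.1% ± 12.1 of ATG5 counts in hypoxia and 59.1% ± 6.14 in normoxia, with overlap (SD, n = 3 each). ATG7, the E1-like enzyme that activates both ATG12 and ATG8 proteins, had 19.1 CPM in hypoxia and 19.2 CPM in normoxia, with a 95% interval of the log2 change of -0.28 to 0.25. With library totals ATG16L2 and ATG10 remained called, whereas ATG12 (log2 change 0.10), ATG5 (0.12) and ATG16L1 (0.06) were not, nor were these 3 in limma on log2(FPKM + 0.5), at 0.08, 0.10 and 0.14.

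Genes that process and lipidate ATG8 proteins moved little or fell, with 1 of 5 risen, 2 fallen and 2 not past the test. Of all genes tested, 36.5% rose and 36.3% fell. ATG4 proteases trim new ATG8 proteins and later release them from membrane. ATG4B, the main protease, averaged 39.8 ± 1.05 CPM in hypoxia and 32.1 ± 1.25 CPM in normoxia (SD, n = 3 each) and rose 1.24-fold (adjusted p = 0.000343). Most of its counts lay in retained-intron transcripts, at 70.7% in hypoxia and 50.7% in normoxia. Coding transcripts of ATG4B held 25.9% in hypoxia and 28.1% in normoxia. The most abundant of them, ATG4B-205, did not pass (log2 change 0.10, edgeR adjusted p = 0.63). ATG4C had 7.35, 7.95 and 10.3 CPM in hypoxia, all below the 12.6, 14.1 and 14.9 CPM in normoxia, and fell by 0.70 on the log2 scale (SE 0.13, adjusted p = 0.000539). ATG4A and ATG4D each had a log2 change of 0.07, with intervals of -0.11 to 0.25 for ATG4A and -0.14 to 0.28 for ATG4D. ATG3, the E2-like enzyme that lipidates ATG8 proteins and the most abundant of the 5 per length, had 54.8, 54.1 and 53.0 CPM in hypoxia and 66.1, 72.3 and 67.8 CPM in normoxia. It fell by 0.35 (SE 0.05, adjusted p = 7.15e-05) without overlap.

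Of the ATG8 proteins, which coat the autophagosome and bind cargo receptors, MAP1LC3B changed most. MAP1LC3B had 260.0, 248.2 and 274.9 CPM in hypoxia, against 58.3, 62.9 and 65.3 CPM in normoxia. The groups were far apart, and the rise was 4.20-fold (log2 change 2.07 ± 0.06, adjusted p = 2.26e-10). MAP1LC3B lies on chromosome 16 from 87383995 to 87404779, and its close copy MAP1LC3B2 had 3.06 CPM in hypoxia and 1.22 CPM in normoxia. GABARAP had 117.0, 119.5 and 101.9 CPM in hypoxia and 94.4, 89.2 and 85.9 CPM in normoxia, a 1.26-fold rise (adjusted p = 0.000813). It lost the call in limma on log2(FPKM + 0.5), with a log2 change of 0.19 (adjusted p = 0.0628; 0.0624 to 0.0647 over the pseudocounts). GABARAP shares 30.5% of its exon bases on the same strand with the entry ENSG00000262526, at 0 CPM in hypoxia and 1.29 CPM in normoxia. GABARAPL2 had 44.8, 39.8 and 43.6 CPM in hypoxia and 34.5, 33.7 and 34.0 CPM in normoxia, a 1.25-fold rise (adjusted p = 0.000368). GABARAPL1 had 120.6, 117.6 and 119.1 CPM in hypoxia and 112.5, 116.2 and 115.1 CPM in normoxia. Its groups did not overlap, yet the log2 change of 0.06 did not pass (adjusted p = 0.222, interval -0.03 to 0.14), and with library totals the value was -0.10. MAP1LC3A had 0, 0 and 5 counts in hypoxia and none in normoxia, and was not tested.

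On a per-length scale the ATG8 genes summed to 349.9, 340.9 and 341.7 FPKM in hypoxia and 254.5, 233.7 and 235.5 FPKM in normoxia. MAP1LC3B made up 34.8%, 33.6% and 37.1% of that sum in hypoxia and 11.6%, 13.5% and 14.3% in normoxia. GABARAP made up 35.3% ± 2.82 in hypoxia and 44.3% ± 2.55 in normoxia, GABARAPL1 17.9% ± 0.480 in hypoxia and 27.8% ± 0.767 in normoxia, and GABARAPL2 11.6% ± 0.683 in hypoxia and 14.8% ± 0.463 in normoxia (SD, n = 3 each). A share falls when another gene rises, and none of these 3 genes fell in TMM-scaled CPM. On the FPKM scale GABARAPL1 averaged 61.6 ± 2.10 in hypoxia and 67.0 ± 2.28 in normoxia (SD, n = 3 each), and it fell by 0.12 in limma on log2(FPKM + 0.5) (adjusted p = 0.0386). The FPKM ratio of MAP1LC3B to GABARAP was 1.00 ± 0.13 in hypoxia and 0.298 ± 0.0474 in normoxia.

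**Figure D3:**
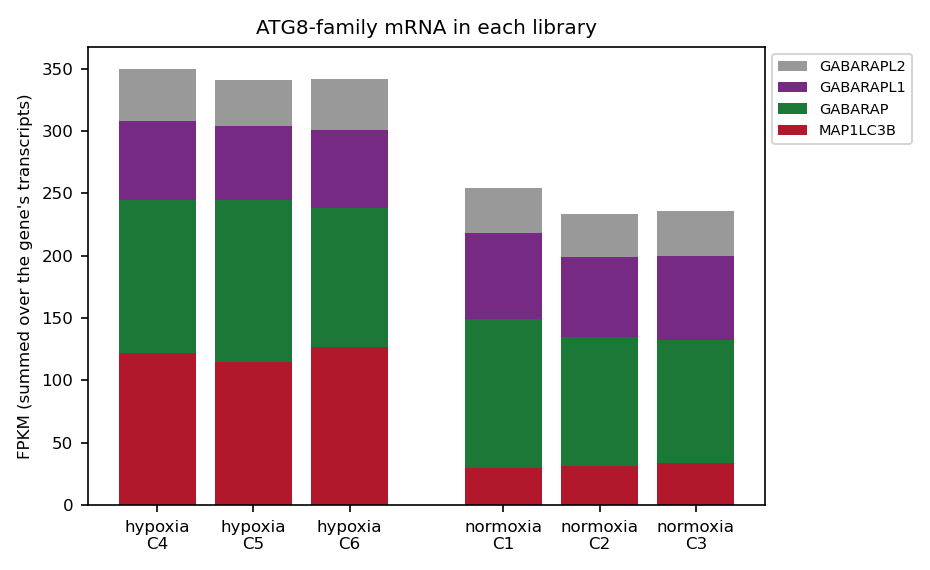
Stacked FPKM of MAP1LC3B, GABARAP, GABARAPL1 and GABARAPL2 in each of the 6 libraries, hypoxia left and normoxia right, on a linear axis from 0. The MAP1LC3B segment is the one that differs most, at 35.2% of the sum on average in hypoxia and 13.1% in normoxia.

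All 4 cargo receptors rose, beside 36.5% of all genes tested, but NBR1 did not pass with library totals. SQSTM1 encodes p62, which carries ubiquitinated proteins into autophagosomes and is itself degraded there. It had 511.7, 515.4 and 481.1 CPM in hypoxia and 260.5, 256.4 and 251.0 CPM in normoxia, a 1.96-fold rise (log2 change 0.97 ± 0.04, adjusted p = 5.65e-09) between groups that lay far apart. In SQSTM1, 20.7% of exon bases lie opposite exons of MRNIP, which had 56.4 CPM in hypoxia and 26.8 CPM in normoxia. OPTN, optineurin, a receptor for ubiquitinated mitochondria and bacteria, had 168.4, 168.1 and 165.7 CPM in hypoxia and 103.7, 109.7 and 107.8 CPM in normoxia, a 1.56-fold rise (adjusted p = 1.13e-07). TAX1BP1, a receptor for protein aggregates, had 188.0, 177.1 and 200.9 CPM in hypoxia and 120.3, 131.1 and 132.6 CPM in normoxia, a 1.47-fold rise (adjusted p = 5.87e-06). NBR1, a partner of p62, had 155.9, 149.0 and 157.7 CPM in hypoxia and 130.6, 132.1 and 132.0 CPM in normoxia. Its rise was the smallest of the 4, at 1.17-fold (adjusted p = 0.000377), and NBR1 was no longer called under library totals (log2 change 0.08) or on its most abundant transcript alone (0.11).

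TFEB, the transcription factor that drives lysosomal and autophagy genes, fell. It had 5.58, 6.83 and 6.65 CPM in hypoxia and 9.24, 10.3 and 10.1 CPM in normoxia. Every hypoxia library was lower (log2 change -0.64 ± 0.11 SE, adjusted p = 0.000304). Its activity is known to depend on phosphorylation and entry into the nucleus, which mRNA levels do not show.

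In order of mean FPKM over the 6 libraries, SQSTM1 came first, at 213.5 ± 10.6 FPKM in hypoxia and 120.5 ± 2.96 FPKM in normoxia (SD, n = 3 each). GABARAP and MAP1LC3B followed. MAP1LC3B ranked 3 of 36 in hypoxia, where its libraries of 114.6 to 126.8 FPKM overlapped those of GABARAP at 111.3 to 130.3 FPKM, and 10 in normoxia. ATG9A ranked 6 in hypoxia and 15 in normoxia, and ULK1 ranked 8 in hypoxia and 23 in normoxia. ATG3 took the opposite course, at rank 14 in hypoxia and 6 in normoxia. Of the 35 pairs of neighbours in the order, 21 overlapped between libraries in hypoxia and 20 in normoxia, so most neighbours could not be placed apart. A mean of at least 10 FPKM was reached by 27 of the 36 genes, and the lowest tested genes were TFEB at 3.46 FPKM and ATG10 at 3.40 FPKM over all libraries.

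Among transcripts holding at least 10% of their gene's counts, those of 4 autophagy genes moved in opposite directions within the gene. RSEM divides reads among the annotated transcripts of a gene, so these values are estimates. The 36 genes had 438 transcripts, of which 227 passed the filter, 51 rose, 13 fell and 163 missed the edgeR threshold. That is 28.2% changed, beside 29.5% of all 74527 transcripts tested, with 15.6% risen and 14.0% fallen. Of 121 tested protein-coding transcripts, 24 rose and 12 fell, beside 15.5% risen and 20% fallen of all tested transcripts of that type. Of 29 subject to nonsense-mediated decay, 9 rose and 1 fell (31.0% and 3.45%), beside 11.5% risen and 9.06% fallen of that type overall. Of 59 with a retained intron, 17 rose and 0 fell (28.8% risen), beside 16.7% risen and 8.56% fallen. Of 18 annotated as processed transcripts, 1 rose and 0 fell (5.56% risen), beside 14.5% risen and 8.52% fallen. These shares by type are a description and were not tested, and transcripts of 1 gene share its reads.

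ATG4A as a whole did not pass, yet its transcripts did. Its coding transcript ATG4A-203 made up 62.2%, 57.2% and 64.3% of the gene's expected counts in hypoxia and 84.3%, 86.0% and 88.1% in normoxia, and fell by 0.46 on the log2 scale (adjusted p = 0.0395). Its nonsense-mediated decay transcript ATG4A-204 made up 33.1%, 37.9% and 33.7% in hypoxia and 12%, 9.24% and 9.35% in normoxia, and rose (log2 change 1.82 ± 0.18, adjusted p = 0.000889). In ATG16L1, coding transcript ATG16L1-205 rose (log2 change 0.87) to 62.1%, 60.2% and 65.6% of counts in hypoxia, against 37.1%, 37.1% and 42.1% in normoxia. Coding transcript ATG16L1-203 fell by 2.28, at 7.10%, 6.86% and 1.38% in hypoxia and 25.4%, 24.7% and 32.0% in normoxia. In ATG4B the retained-intron transcript ATG4B-220 rose (log2 change 0.66) and ATG4B-201, subject to nonsense-mediated decay, fell by 2.33. In WIPI2 the coding transcript WIPI2-201 (log2 change 0.61) and the retained-intron transcript WIPI2-207 (1.22) rose, and WIPI2-203, coding, fell by 0.36. In ATG5 the division was unstable, with ATG5-208 at 22.2%, 0.21% and 0.028% of counts in hypoxia and 12.7%, 15.9% and 19.1% in normoxia.

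The genes with the largest rises differed in which transcripts held their counts. MAP1LC3B came almost wholly from MAP1LC3B-201, coding, at 94.9%, 92.5% and 95.1% of counts in hypoxia and 97.0%, 96.5% and 94.6% in normoxia. ULK1 came mostly from ULK1-201, coding, at 89.4%, 88.8% and 88.9% in hypoxia and 92.4%, 93.4% and 93.1% in normoxia. ATG16L2 did not. Its coding transcripts held 30.8% ± 1.02 of counts in hypoxia and 42.8% ± 4.99 in normoxia, and its retained-intron transcripts 47.1% ± 1.27 in hypoxia and 41.5% ± 3.09 in normoxia (SD, n = 3 each). ATG14 went the other way, with coding transcripts at 86.6% ± 2.04 in hypoxia and 75.2% ± 4.84 in normoxia. The coding share was lower in hypoxia without overlap in 13 of the 33 tested autophagy genes with several transcript types and higher in 2, ATG14 and ATG9A. Over all such genes of the table it was lower without overlap in 23.0% (2487 of 10800) and higher in 833. The median coding share of the autophagy genes was 90.8% in hypoxia and 93.5% in normoxia, beside 89.5% in hypoxia and 91.0% in normoxia for all such genes.

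**Figure D4:**
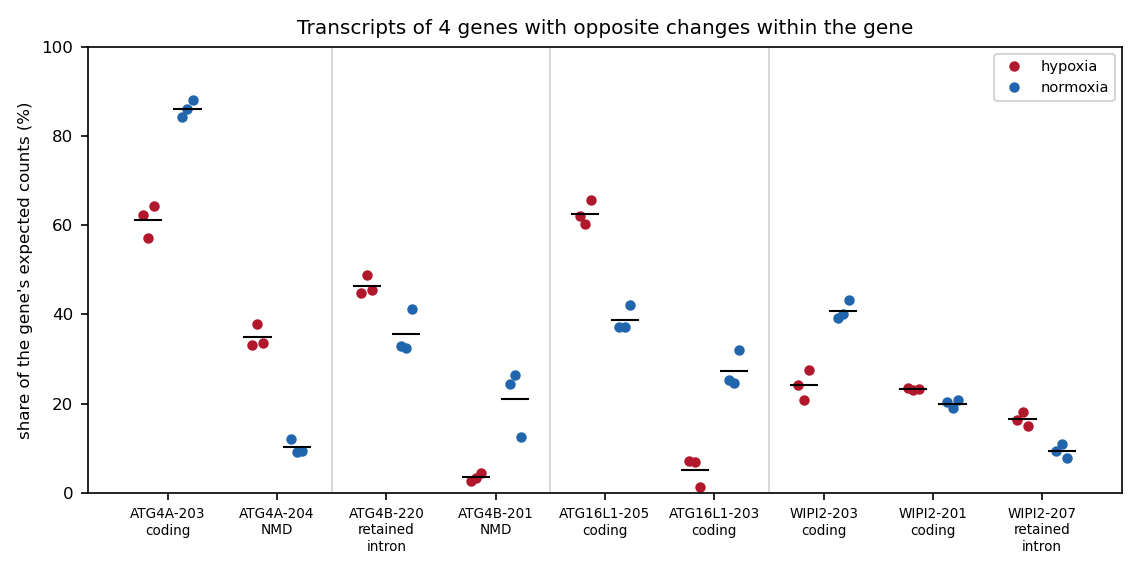
Share of the gene's expected counts held by 9 transcripts of ATG4A, ATG4B, ATG16L1 and WIPI2 in each library, in percent (dots, hypoxia left in red and normoxia right in blue, black lines show the mean, n = 3; NMD, nonsense-mediated decay). The coding transcript ATG4A-203 lies lower in hypoxia and its partner ATG4A-204 higher, without overlap.

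Of 6 lists of neighbouring functions, the selective receptors and the AMPK and mTORC1 genes held larger single changes than the 36 genes, at log2 changes of 3.09 for BNIP3L and 2.40 for DDIT4. Among 19 tested of 20 other autophagy genes, 9 rose and 2 fell, beside 36.5% risen and 36.3% fallen of all genes tested. The median log2 change of these 19 was 0.24. WDR45B, a PI3P effector, rose most, at 290.7 ± 7.48 CPM in hypoxia and 71.6 ± 1.55 CPM in normoxia (SD, n = 3 each), and ZFYVE1 (log2 change 1.49), MAP1LC3B2 (1.32) and VMP1 (0.87), a scramblase of the endoplasmic reticulum, also rose. All 16 receptors of selective autophagy outside the 36 genes were tested. Of these, 7 rose and 7 fell around a median of -0.04, beside 36.5% and 36.3% of all genes. BNIP3L averaged 461.1 ± 25.1 CPM in hypoxia and 54.1 ± 1.52 CPM in normoxia (SD, n = 3 each), an 8.52-fold rise. Its relative BNIP3, also a mitophagy receptor, averaged 741.6 ± 5.84 CPM in hypoxia and 97.9 ± 2.45 CPM in normoxia, a 7.57-fold rise. STBD1, which binds glycogen, rose (log2 change 2.25), and NUFIP1, a receptor for ribosomes, fell by 1.65.

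None of the fusion genes and 3 of the 39 lysosome genes rose at least 2-fold, beside 17.5% of all genes tested. Of 14 tested of 15 genes for fusion of autophagosomes with lysosomes, 5 rose, 3 fell and 6 missed the threshold. Their median log2 change was 0.02, and of all genes tested 36.5% rose and 36.3% fell. PLEKHM1 (0.63), RAB7A (0.61) and STX7 (0.56) rose, and VPS18, a tethering subunit, fell by 0.46. Of 39 lysosome genes, 20 rose and 8 fell, beside the same 36.5% and 36.3% of all genes, and 11 missed the threshold. The median log2 change of the 39 was 0.19. The sialidase NEU1 rose 3.47-fold, at 90.6 ± 5.64 CPM in hypoxia and 26.1 ± 2.14 CPM in normoxia (SD, n = 3 each), and the proteases CTSB (log2 change 1.52) and CTSL (1.06) and the cholesterol carrier NPC2 (0.88) rose.

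Upstream regulators moved in both directions. Of 9 other transcription factors and TFEB regulators, 6 rose and 2 fell, beside 36.5% risen and 36.3% fallen of all genes tested. The median log2 change of the 9 was 0.59. FOXO3, a factor that activates autophagy genes, had 96.6 ± 4.0 CPM in hypoxia and 33.0 ± 0.276 CPM in normoxia (SD, n = 3 each) and rose 2.92-fold, and the folliculin partner FNIP2 rose (log2 change 1.47). MITF, a relative of TFEB, fell by 1.45, and FOXO1 fell by 0.96. Of 17 tested of 18 AMPK and mTORC1 genes, 9 rose and 7 fell, beside the same shares of all genes, and 1 missed the threshold. The median of the 17 was 0.13. DDIT4, an inhibitor of mTORC1, rose 5.28-fold, at 608.3 ± 23.6 CPM in hypoxia and 115.3 ± 6.38 CPM in normoxia. RPTOR, the mTORC1 subunit that binds substrates, rose too (log2 change 1.92), as did DEPTOR (1.87), which inhibits mTOR, and SESN1 (1.52), a stress-induced inhibitor of mTORC1. The shares changed in these lists, from 57.1% of the fusion genes to 94.1% of the AMPK and mTORC1 genes, lie around the 72.8% of all genes, and no list was tested against the rest.

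**Figure D5:**
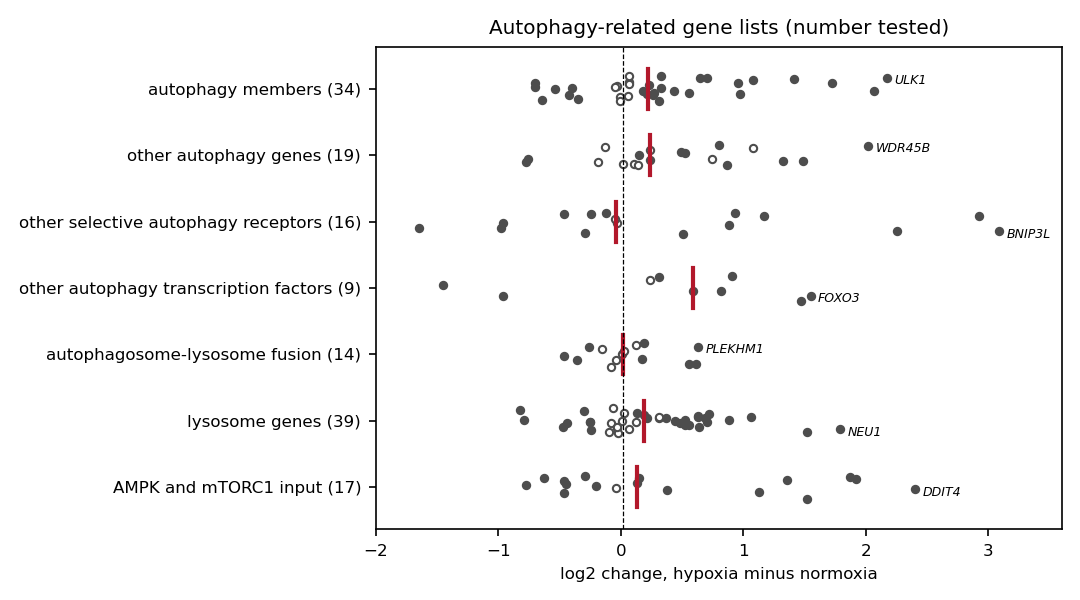
Log2 change, hypoxia minus normoxia, of the tested genes of the 36 autophagy genes and 6 related lists (one dot per gene, filled where the edgeR adjusted p was under 0.05; vertical position within a row is arbitrary; red bar, list median; dashed line, median of all genes at 0.02). The gene with the highest change of each list is named, from PLEKHM1 at 0.63 to BNIP3L at 3.09.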

How the data were processed

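RNA of 6 libraries labelled Huh7, 3 from hypoxia and 3 from normoxia, was analysed from 1 deposited table of 251062 transcripts. Per the submitters' processing notes, cutadapt, HISAT2, RSEM and GRCh38 were used. The sources used here give neither tool versions nor the annotation or strand setting. Values tested were the deposited expected counts, which RSEM divides among transcripts, and 6 other library columns of the table (FPKM) were not used. Column names give the condition and a number (C1 to C6) that matches no replicate number in the labels.

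Transcripts were summed per gene with GENCODE 29. A gene was found for 202907 rows, and the other 48155 rows, with 6.12% to 6.39% of counts, stayed out, so a gene sum may miss newer transcripts. Sums were rounded, filtered with filterByExpr, scaled by TMM and tested with edgeR 4.0.16 (two-sided quasi-likelihood test, Benjamini-Hochberg over 17396 genes, threshold 0.05; R 4.3.3). SE is the log2 change divided by the square root of F, and CPM uses TMM-scaled library sizes. For FPKM, each transcript's counts were divided by its deposited length and then summed over the gene. These sums were scaled by the library's total over genes, without TMM, so counts given to short transcripts weigh more. Transcripts were tested in the same way over 74527. Within groups, library pairs had a chi-square per degree of freedom of 4.60 to 11.0, above sampling noise, and none was taken as a duplicate. Replicates are called biological in the labels, with nothing said of separate cultures, so the spread behind a p-value may be partly technical. Data were also simulated over 17083 genes, with only a small part of the better-expressed genes changed, at random in either direction. There the test found 97% of 67 genes given a 1.5-fold change and 100% of those given 2-fold (67 genes) or 4-fold changes (66 genes). It made 13 calls among 16883 unchanged genes. In the real data 72.8% of genes tested were called, so these rates cannot be carried over to them. Floors cover counting error only.

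The 36 genes and all lists were chosen with earlier results of these data known. Full values are given by rule for genes changed at least 2-fold, ATG8 genes, cargo receptors, TFEB and the gene of each role with the highest mean FPKM over all libraries, and for up to 4 genes of each other list with the largest changes. Other values named, such as those of ATG10, ATG4C, PIK3R4, ULK3, CD68 and single transcripts, were chosen after they were seen. Of the 34 tested genes, 17 share exon bases with another tested gene, 2 on the same strand and 15 on the opposite one, and reads there may have been divided between them. Alternatives were DESeq2 1.42.0, other scalings and filters, limma 3.58.1 on log2(FPKM + 0.5) with pseudocounts of 0.1 and 1, the most abundant transcript alone, and leaving out each library in turn.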

Additional observations from a re-analysis of the deposited data

How the results depend on the processing

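The number of changed autophagy genes was 22 to 26 and of those changed at least 2-fold 4 to 6 over all 15 alternatives, and without each library in turn 25 to 26 and 5 to 6. The lower counts came with library totals (14 risen and 8 fallen) and with limma on FPKM at each of the 3 pseudocounts (14 risen and 8 fallen), where ATG14 was at log2 changes of 0.93 and 0.81 to 0.92. Of 510 values of single genes under these settings, 450 kept direction and side of the threshold. Call and direction held throughout for 19 genes, 12 risen and 7 fallen. A call was lost somewhere by ATG12, ATG16L1, ATG5, GABARAP, NBR1 and RB1CC1, while ATG2A with library totals (-0.18), ATG13 (0.20) and ATG4A (-0.40) on their most abundant transcript and GABARAPL1 in limma (-0.12) gained one. Direction turned in 31 values, of which 2 belonged to genes called risen, both on the most abundant transcript, ATG12 at -0.01 and WIPI2 at -0.31. The others on that transcript were ATG4A at -0.40 (adjusted p = 0.0185) and ATG7 at 0.22. With library totals, ATG13, ATG4A and ATG4D stood at -0.08 and GABARAPL1 at -0.10. Under a filter of 0.5 FPKM, ATG101 stood at 0.01 and ATG7 at 0.003. In limma with pseudocounts of 0.5, 0.1 and 1, ATG4A stood at -0.12, -0.12 and -0.11, ATG4D at -0.003, -0.003 and -0.002, ATG7 at 0.10, 0.10 and 0.09, and GABARAPL1 at -0.12 each time, past the threshold (adjusted p = 0.0386, 0.039 and 0.0383). Without single libraries, ATG101 ranged from -0.06 to 0.05, ATG7 from -0.11 to 0.09, ATG2A from -0.09 to 0.04, ATG4D from -0.03 to 0.14 and WIPI1 from -0.10 to 0.01. The cause of these turns was not tested. Changed transcripts over the whole table numbered 21994, with 15987 to 18237 without single libraries. Ordering the genes by the deposited FPKM was not run. No paired analysis was possible because the columns carry no replicate number of the labels. Depth limits ULK2 and MAP1LC3A, which lie at or near the 3-count floor.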
